A study of Saccharomyces cerevisiae with 6 samples.

Results

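The genes described here carry messenger RNA (mRNA) out of the nucleus of Saccharomyces cerevisiae or encode its Ran GTPases. They are MEX67, MTR2, YRA1, SUB2, GBP2, HRB1, NAB2, NPL3, GSP1 and GSP2, listed by symbol and found through probe sets that the platform annotation assigns to 1 gene. All 10 were found, on 13 probe sets, among 5656 genes and 6504 probe sets of that kind, and all 10 were bright enough to be among the 4242 genes tested. The study measured total RNA from yeast grown at 30 °C on 6 Affymetrix arrays, with 2 arrays in each of 3 groups. The groups were wild type (WT), an FHL1 deletion (the single mutant) and a deletion of FHL1 together with IFH1 (the double mutant), so that FHL1 was missing from both mutant groups. The labels give no strain background, growth medium or number of clones, and do not say that replicates were separate cultures, so each p-value measures the spread between these arrays only.

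An mRNA leaves the nucleus as a particle coated with proteins. The Mex67 and Mtr2 proteins form the receptor that takes this particle through the nuclear pore, and adaptors such as Yra1, loaded during transcription with the helicase Sub2 and the THO complex, bring the receptor to it. Ran drives a different set of carriers, the karyopherins, which move proteins and transfer RNA, among other cargo, across the same pores. FHL1 encodes a forkhead-type protein at ribosomal protein gene promoters and IFH1 its coactivator there.

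The deleted genes matched the labels as far as they could be read. FHL1 lay under the floor of 5.63 (log2, the 10th percentile, to which lower values were raised) on every array, with deposited log2 values of 4.91 and 5.02 in WT and 2.66 to 3.18 on the 4 mutant arrays. IFH1 had scaled log2 signals of 8.38 and 8.63 in WT and 8.91 and 8.92 in the single mutant, and lay at the floor on both double mutant arrays. Exactly equal values tied together WT of the first experiment, the single mutant of the second and the double mutant of the first (502 to 859 probe sets per pair), here called array set A, while the remaining arrays, set B, shared 1 equal value at most. Markers of mating type MATa were high on 1 array of each mutant, both in set B (single mutant, experiment 1, and double mutant, experiment 2), and MATalpha markers on the remaining 4 arrays. Set B is thus only the remainder, and its mutant arrays are MATa where its WT array is MATalpha. Differences from WT within set B, and fits with array set as a block, carry this limit throughout. Main differences from WT carry it in part, as each mutant group averages 1 MATa and 1 MATalpha array. The part of mating type in them was not tested. On the MATalpha arrays alone, with 1 array per mutant, the single mutant differed from WT by 0.84 for MTR2, 0.53 for YRA1 and 1.16 for GSP2. The 3 MATa markers tested, of 6 listed, summed to 35.3 and 35.9 on the MATa arrays and 22.0 to 22.9 elsewhere (scaled log2). The 4 MATalpha markers tested, of 5 listed, summed to 26.9 and 26.9 on the MATa arrays and 42.5 to 46.5 elsewhere. None of these markers passed the test between groups.

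In the single mutant, 3 of the 10 genes rose, none fell and 7 did not pass the test (limma, adjusted p under 0.05 over all tested genes). MTR2, the small subunit of the export receptor, was 1.65-fold higher than in WT, the adaptor gene YRA1 1.47-fold and the second Ran gene GSP2 2.16-fold. Of all tested genes, 12.9% rose and 8.42% fell in that comparison. In the double mutant MTR2 alone passed, 1.58-fold higher, where 9.78% of all tested genes rose and 8.46% fell. Between the double mutant and the single mutant none of the 10 passed in limma, nor had any an unadjusted p under 0.05, while 0.0236% of all tested genes passed, a single gene, IFH1 itself. Median changes over the 10 genes were -0.0055 in the single mutant and 0.0022 in the double mutant on the log2 scale, beside 0.024 and 0.0054 over all tested genes. Counted by arrays that do not overlap, 4 of the 10 genes lay higher and 2 lower than WT in the single mutant (34.1% and 29.5% of all tested genes), and 2 lay higher and 3 lower in the double mutant (31.5% and 29.4%). Against the single mutant, 1 lay higher and 2 lower in the double mutant (12.5% and 19%). These shares lie too near the background to set the 10 genes apart.

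**Figure D1:**
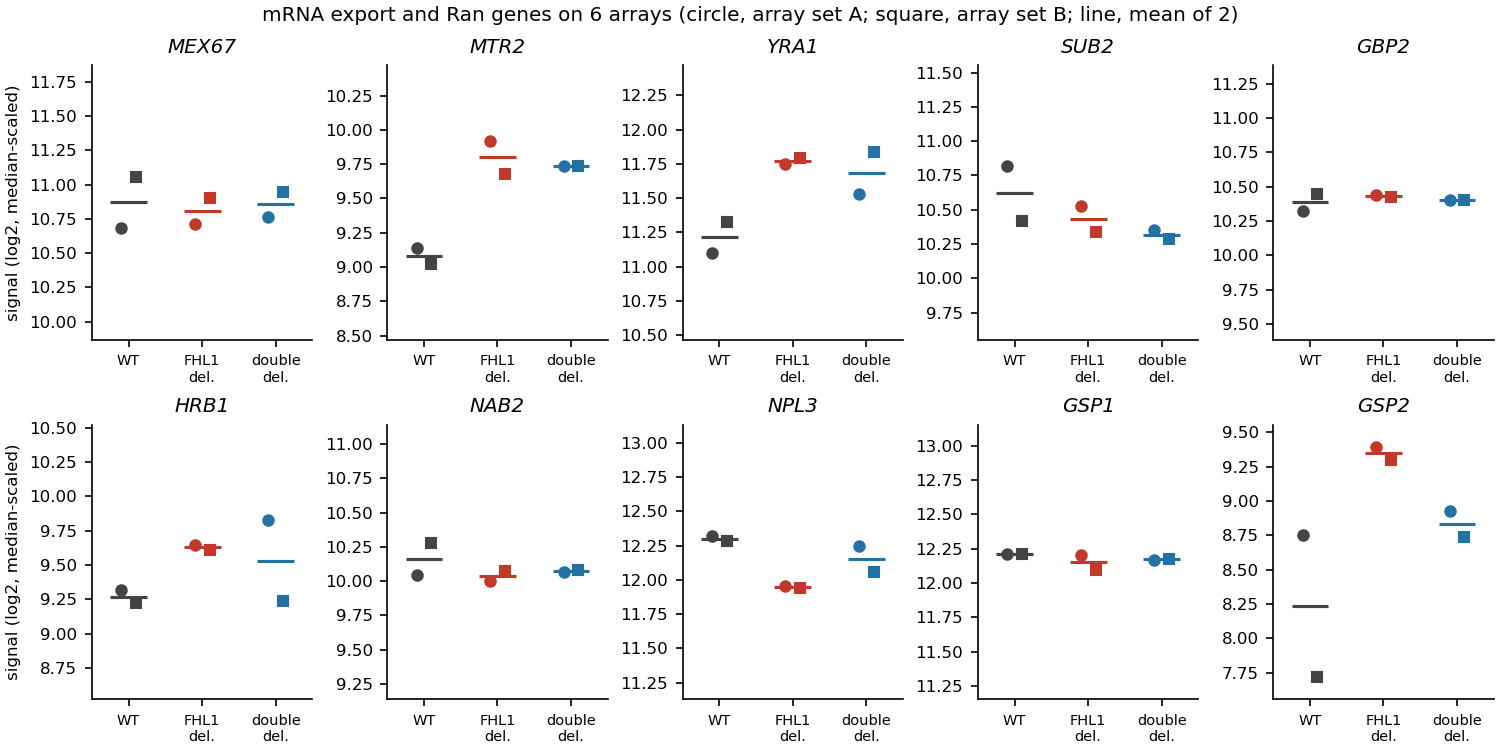
Median-scaled log2 signal of the 10 genes on each array, by group, with circles for array set A, squares for set B and a line at the mean of 2 arrays; every panel spans the same number of log2 units. MTR2 lies at 9.02 and 9.14 in WT and at 9.68 to 9.92 on the mutant arrays, while GSP1 stays between 12.10 and 12.21 on all arrays.

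The receptor's subunits gave different values. MTR2 (YKL186C) had scaled log2 signals of 9.14 and 9.02 in WT (first experiment first, here and below), 9.68 and 9.92 in the single mutant, and 9.74 and 9.74 in the double mutant. Every mutant array lay above both WT arrays, and the mutant groups overlapped each other. The difference from WT was 0.72 (SE 0.15, adjusted p = 0.0164) in the single mutant and 0.66 (SE 0.15, adjusted p = 0.0262) in the double mutant, both log2. Array set A gave 0.78 and set B 0.66 for the single mutant, against 0.60 and 0.71 for the double mutant, and with array set as a block the adjusted p was 0.00351 and 0.00536. The calls did not survive every array left out: the single mutant lost its call without either WT array or its own second array (0.60 to 0.78, adjusted p 0.0608 to 0.0943), and the double mutant without any of the 4 arrays compared (adjusted p 0.0887 to 0.127).

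MEX67 (YPL169C), which encodes the large subunit of that receptor, had 10.68 and 11.06 in WT, 10.90 and 10.72 in the single mutant, and 10.76 and 10.95 in the double mutant. Its WT arrays held the lowest and the highest of the 6 values, so the mutant arrays lay between them. The difference from WT was -0.06 (95% confidence interval -0.46 to 0.34) in the single mutant and -0.013 (-0.41 to 0.39) in the double mutant, with adjusted p of 0.838 and 0.964.

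YRA1 (YDR381W) encodes the adaptor that hands mRNA to Mex67, and its own intron is known to serve in a feedback on its expression. Its signals were 11.10 and 11.33 in WT, 11.79 and 11.75 in the single mutant, and 11.53 and 11.84 in the double mutant. All 4 mutant arrays were above both WT arrays. The difference was 0.55 (SE 0.15, adjusted p = 0.0406) in the single mutant, 0.65 within set A and 0.46 within set B. In the double mutant it was 0.47 (SE 0.15, adjusted p = 0.0715), 0.43 within set A and 0.51 within set B, and it passed there with array set as a block (adjusted p = 0.0147). The call in the single mutant was close to the threshold: centring each array on the median over genes, in place of the median over probe sets, gave 0.50 (adjusted p = 0.0541), and leaving out any of the 4 arrays compared ended it (0.44 to 0.67, adjusted p 0.0888 to 0.177). It also missed the threshold with no filter on dim genes, with plain probe sets, with experiment number as a replicate block and without the trend, and passed in 12 of 21 alternatives.

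A second YRA1 probe set gave nearly the same differences from WT. Probe set 6079_at, not used above because it is the dimmer of the pair, had 9.91 and 9.75 in WT, 10.45 and 10.48 in the single mutant, and 10.21 and 10.34 in the double mutant. Again no mutant array reached down to WT. With every probe set fitted as its own row, its difference from WT was 0.64 (SE 0.14, adjusted p = 0.0211) in the single mutant. In the double mutant it was 0.45 (SE 0.14, adjusted p = 0.0697). Probe set 6078_at, used above, gave 0.55 (adjusted p = 0.0423) and 0.47 (adjusted p = 0.0779) in that fit. Between the mutants, 6079_at was lower in the double mutant on both arrays (-0.20, SE 0.14), while 6078_at overlapped (-0.08, SE 0.15). Neither passed there.

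SUB2 (YDL084W), the gene of the DEAD-box helicase that works with Yra1, had 10.82 and 10.42 in WT, 10.33 and 10.53 in the single mutant, and 10.35 and 10.28 in the double mutant. Both double mutant arrays lay below WT, the nearer by 0.07, while the single mutant overlapped WT. The difference from WT was -0.19 (SE 0.17, adjusted p = 0.464) in the single mutant and -0.30 (SE 0.17, adjusted p = 0.268) in the double mutant.

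**Figure D2:**
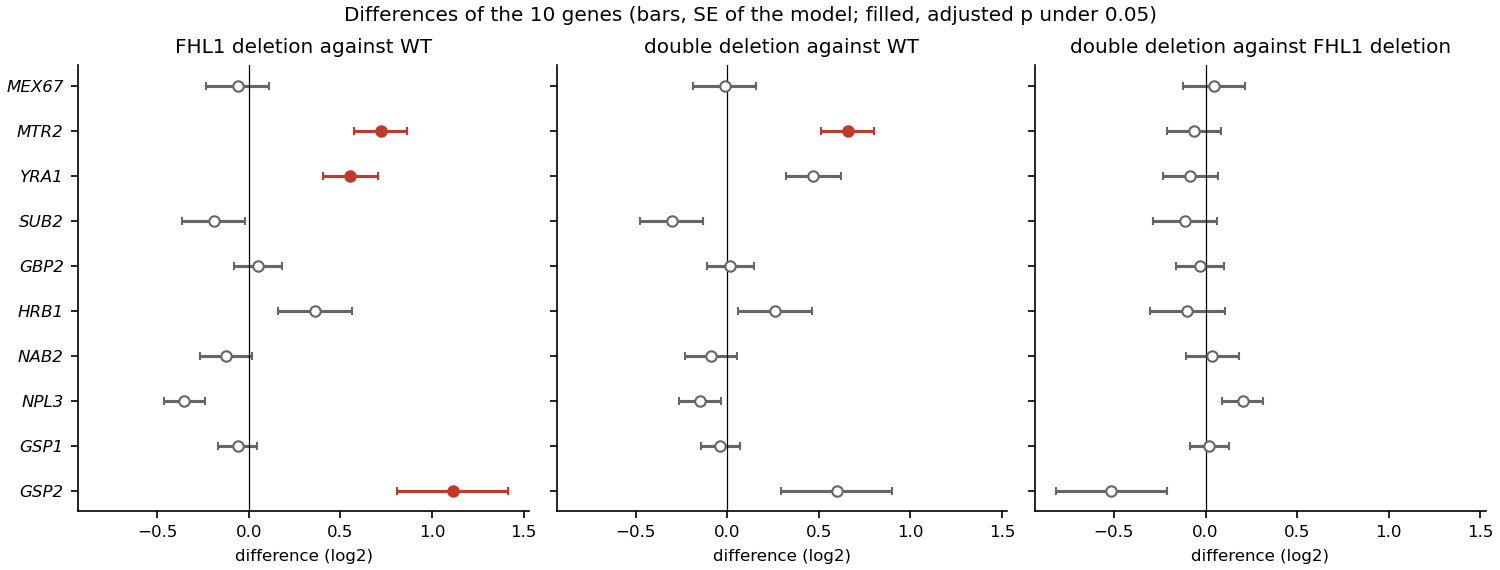
Log2 difference of each gene in the 3 comparisons, with bars for the standard error of the model and filled points for adjusted p under 0.05. MTR2, YRA1 and GSP2 are filled in the single mutant against WT, MTR2 in the double mutant against WT, and none between the mutants.

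GBP2, HRB1, NPL3 and NAB2, which encode RNA-binding proteins that travel with mRNA, did not pass in any comparison. GBP2 (YCL011C) and HRB1 (YNL004W) are paralogs that encode shuttling proteins with serine and arginine-rich regions, recruited with the THO complex. GBP2 had 10.32 and 10.45 in WT, 10.43 and 10.44 in the single mutant, and 10.40 and 10.40 in the double mutant, a range of 0.13 over all 6 arrays. Its difference from WT was 0.05 (95% confidence interval -0.26 to 0.35) in the single mutant.

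HRB1 varied more. It had 9.32 and 9.22 in WT, 9.61 and 9.65 in the single mutant, and 9.83 and 9.23 in the double mutant. The single mutant lay above WT on both arrays, and the double mutant held 1 array above all others and 1 at the WT level, the latter with MATa markers. On the MATa array of the single mutant HRB1 was at 9.61, and the part of mating type in these values was not tested. Differences from WT were 0.36 (SE 0.20, adjusted p = 0.244) in the single mutant and 0.26 (SE 0.20, adjusted p = 0.417) in the double mutant, where set A gave 0.51 and set B 0.01.

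NPL3 (YDR432W), which encodes an abundant shuttling protein of the same kind, had 12.32 and 12.28 in WT, 11.94 and 11.96 in the single mutant, and 12.24 and 12.06 in the double mutant. The double mutant arrays lay between those of WT and the single mutant. Its difference in the single mutant was -0.35 (SE 0.11, adjusted p = 0.0681), with -0.36 within set A and -0.34 within set B. It passed with array set as a block (adjusted p = 0.0224) and with arrays centred on the median over genes (-0.40, adjusted p = 0.0463). In the double mutant the difference from WT was -0.15 (SE 0.11, adjusted p = 0.411), and between the mutants 0.20 (SE 0.11, adjusted p = 0.982).

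The 3 probe sets of NPL3 did not move alike. Probe set 6039_g_at had 12.21 and 12.21 in WT, 11.71 and 11.47 in the single mutant, and 12.05 and 11.52 in the double mutant, with differences from WT of -0.62 (SE 0.19, adjusted p = 0.0575) and -0.43 (SE 0.19, adjusted p = 0.165). Probe set 6038_at had 10.32 and 10.74 in WT, 10.72 and 10.19 in the single mutant, and 10.67 and 10.74 in the double mutant, with differences of -0.08 (SE 0.22) and 0.17 (SE 0.22). The brighter probe sets were below WT on all 4 mutant arrays, whereas 6038_at overlapped WT in both mutants, so the value for NPL3 depends on the probe set read.

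NAB2 (YGL122C) encodes a protein that binds the poly(A) tail and limits its length. It had 10.04 and 10.28 in WT, 10.07 and 10.002 in the single mutant, and 10.07 and 10.08 in the double mutant. Both mutants overlapped WT, with differences of -0.13 (95% confidence interval -0.46 to 0.21) and -0.09 (-0.42 to 0.25).

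**Figure D3:**
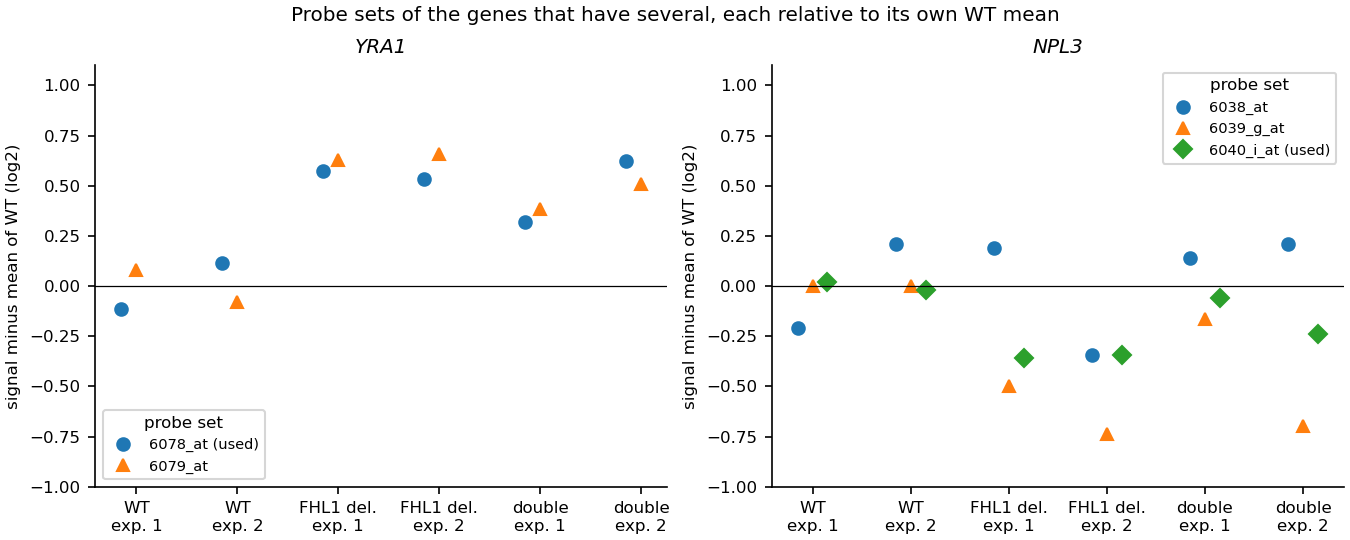
Signal of each probe set of YRA1 (left) and NPL3 (right) on the 6 arrays, on the log2 scale relative to that probe set's own WT mean; the probe set used for the gene is marked in the key. Both YRA1 probe sets are above WT on all mutant arrays, while for NPL3 probe set 6038_at departs from the other probe sets on 3 of the 4 mutant arrays.

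The Ran paralogs gave opposite extremes of spread among the 10 genes. Their coding sequences are closely alike, and cross-hybridization between their probe sets was not tested, as no probe sequences were used. GSP1 (YLR293C), the essential Ran gene, had 12.21 and 12.21 in WT, 12.10 and 12.21 in the single mutant, and 12.17 and 12.18 in the double mutant. Its standard deviation within groups was 0.04, lower than that of all but 2.4% of tested genes, whose median was 0.16. Differences from WT were -0.06 (95% confidence interval -0.31 to 0.19) and -0.04 (-0.29 to 0.21) and turned positive in the deposited scaling and after quantile normalization, with no call.

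GSP2 (YOR185C), a dispensable gene for a nearly identical protein, had 8.75 and 7.72 in WT, 9.30 and 9.40 in the single mutant, and 8.93 and 8.74 in the double mutant. The single mutant lay above WT by at least 0.55, and the double mutant lay between, overlapping the WT array from experiment 1. The difference in the single mutant was 1.11 (SE 0.30, adjusted p = 0.0414), with 0.65 within set A and 1.58 within set B, and its size ranked 192 among the 4242 tested genes. In the double mutant the difference was 0.60 (SE 0.30, adjusted p = 0.217), with 0.17 within set A and 1.02 within set B. Between the double mutant and the single mutant it was -0.51 (SE 0.30, adjusted p = 0.982), with -0.47 within set A and -0.56 within set B.

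The size of the GSP2 difference depended on which WT array was kept, 8.75 or 7.72. Without the WT array from experiment 2, the single mutant differed by 0.60 (adjusted p = 0.109) and the double mutant by 0.08 (adjusted p = 0.821). The single mutant also lost its call without either of its own arrays (1.16 and 1.06, adjusted p = 0.0572 and 0.0894). Without the other WT array the values were 1.63 and 1.11 (adjusted p = 0.0356 for the latter). The WT array from experiment 2 stood apart in the median of 10 rRNA control probe sets, with a deposited log2 value of 9.84 against 5.38 to 6.77 on the other arrays, and the part of this in the GSP2 value was not tested. Within-group spread of GSP2, 0.43, was above that of 96.2% of tested genes.

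**Figure D4:**
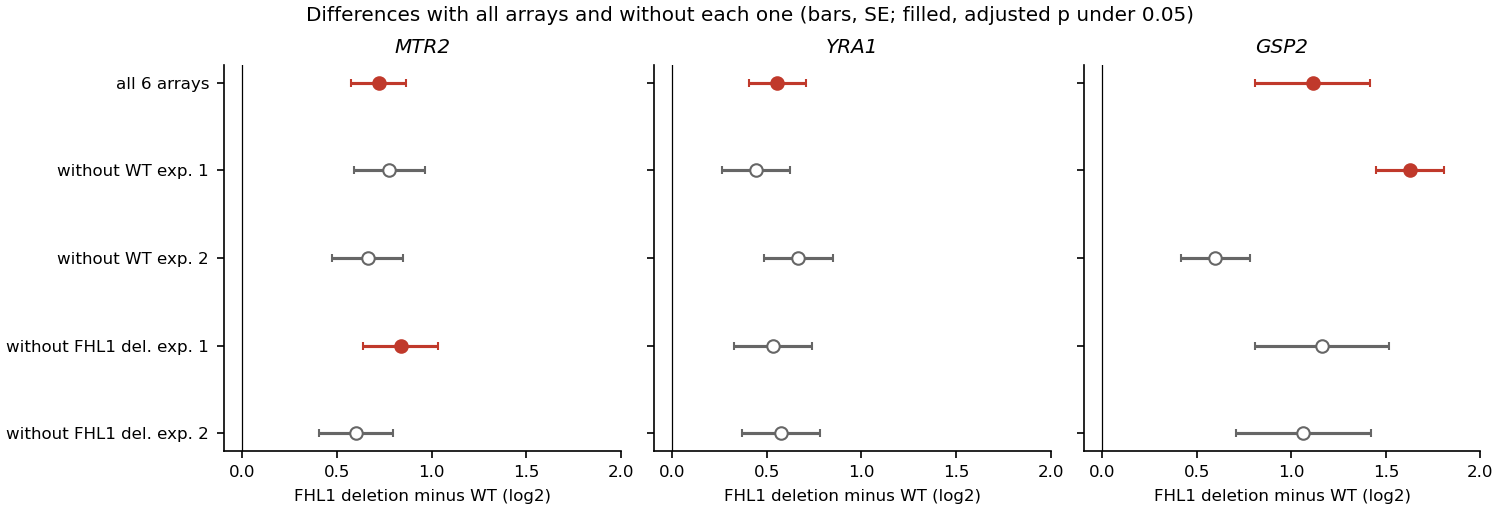
Log2 difference between the single mutant and WT for MTR2, YRA1 and GSP2, with all arrays and without each array of these groups; bars show the standard error and filled points adjusted p under 0.05. MTR2 stays between 0.60 and 0.84 and YRA1 between 0.44 and 0.67, while GSP2 runs from 0.60 without the WT array from experiment 2 to 1.63 without that from experiment 1.

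Whether the paralogs of a pair changed unequally was tested on the per-array log2 difference of their probe sets, with 2 WT arrays against the 4 mutant arrays. GSP2 minus GSP1 was -3.46 and -4.49 in WT, -2.80 and -2.81 in the single mutant, and -3.24 and -3.44 in the double mutant. All 4 mutant values were above both WT values, the closest at -3.44 against -3.46. The average difference was 0.90, with a two-sided exact permutation p of 0.0667, the smallest that 15 assignments allow. The average was 0.39 without the WT array from experiment 2 and 1.42 without that from experiment 1. HRB1 minus GBP2 was 0.28 higher in the mutants (two-sided exact permutation p = 0.267), with 1 of the 4 mutant arrays inside the WT range.

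Profiles most like those of the called genes were sought by the root mean square difference over the 6 arrays, after each gene's mean was subtracted. For MTR2 these were DPC25 (YPL107W, root mean square difference 0.02) and the peroxisome gene PEX2 (YJL210W, 0.04), and for YRA1 they were NOG2 (YNR053C, 0.02), which encodes a GTPase of large-subunit assembly, and HSU1 (YLL058W, 0.03). In the single mutant NOG2 rose by 0.57 (limma adjusted p = 0.0404), but by 0.37 with the mean of its probe sets (limma adjusted p = 0.289). HSU1 did not pass there (limma adjusted p = 0.0617). GSP2 was less closely matched, by the glutamate decarboxylase gene GAD1 (YMR250W, 0.15) and the ATP synthase subunit gene ATP15 (YPL271W, 0.16). Both of the latter were lowest on the WT array from experiment 2, at 8.49 and 10.60 against 9.13 and 11.32 on the first. The matching itself favours this, since GSP2 was lowest there and the same arrays were used. DPC25, PEX2, GAD1 and ATP15 also passed in the single mutant (limma adjusted p = 0.0159, 0.0173, 0.0169 and 0.0395). Calls of matched genes follow in large part from the matching and are no separate result. The genes named are the nearest of 4242 genes over 6 arrays and are given as a description.

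Genes next to MTR2, YRA1 and GSP2 in the annotation's order were examined after the values were seen. Of 6 neighbours, 2 were tested. ARO10, a decarboxylase gene of aromatic amino acid breakdown next to YRA1, rose by 1.57 in the single mutant (SE 0.19, adjusted p = 0.00327) and by 1.57 in the double mutant (adjusted p = 0.00379), more than YRA1 did, and passed in all 21 alternatives in both. The tested neighbour of MTR2 did not pass.

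Of 83 further genes of the transport machinery, listed in 6 groups, 73 were tested. Calls in the single mutant were 2 higher and 2 lower, beside 12.9% higher and 8.42% lower among all tested genes. For the double mutant they were 0 higher and 3 lower, beside 9.78% and 8.46%, and none passed between the mutants. Their median was -0.09 in the single mutant and -0.12 in the double mutant, beside 0.02 and 0.01 over all tested genes. These lists, like the 10 genes, were drawn up with earlier results of these data known.

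Among THO, TREX and TREX-2 genes (7 tested), SEM1, a small subunit shared by TREX-2 and the proteasome lid, rose by 0.83 in the single mutant (SE 0.23, adjusted p = 0.0412). It had 8.80 and 8.15 in WT, 9.23 and 9.37 in the single mutant, and 9.12 and 8.85 in the double mutant. Its call was lost without the WT array from experiment 2 (0.50, adjusted p = 0.174) or either single mutant array (adjusted p = 0.0579 and 0.109), and without the WT array from experiment 1 it was 1.15 (adjusted p = 0.0324). The list median was 0.27 in the single mutant and 0.19 in the double mutant. HPR1, MFT1, YRA2, THO1, THP1 and CDC31 did not pass.

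PUB1, which encodes a poly(A)+ RNA-binding protein of nucleus and cytoplasm, was the called member among other mRNA-binding and processing factors (12 tested, medians -0.24 and -0.17). It had 11.56 and 11.59 in WT, 11.09 and 11.02 in the single mutant, and 10.999 and 11.17 in the double mutant, and fell by 0.52 (SE 0.13, adjusted p = 0.0293) and by 0.49 (SE 0.13, adjusted p = 0.0391). All 4 mutant arrays were below both WT arrays.

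At the release step, where Dbp5 and Gle1 strip the receptor from mRNA on the cytoplasmic side (7 tested), DYN2, a dynein light chain gene whose product also sits in the pore, rose by 0.50 in the single mutant (SE 0.14, adjusted p = 0.0439). GLE2, which encodes a pore protein needed for mRNA export, fell by 0.49 in the double mutant (SE 0.14, adjusted p = 0.0466). DBP5, GLE1, GFD1, NUP159 and NUP82 did not pass.

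Regulators of the Ran cycle (7 tested) gave no call in either mutant. They include the exchange factor gene SRM1 and the GTPase activator gene RNA1, and their median differences were 0.02 in the single mutant and -0.04 in the double mutant. Of 13 karyopherin genes tested, KAP122, an importer gene, fell by 0.53 in the double mutant (SE 0.14, adjusted p = 0.042). The karyopherin medians were -0.14 in the single mutant and -0.17 in the double mutant. Of 27 other nucleoporin genes, NUP1, of the nuclear basket, fell by 0.52 in the single mutant (SE 0.13, adjusted p = 0.0341), and the medians were -0.13 and -0.12. Calls of PUB1, DYN2, GLE2, KAP122 and NUP1 were lost when any array of the groups compared was left out.

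**Figure D5:**
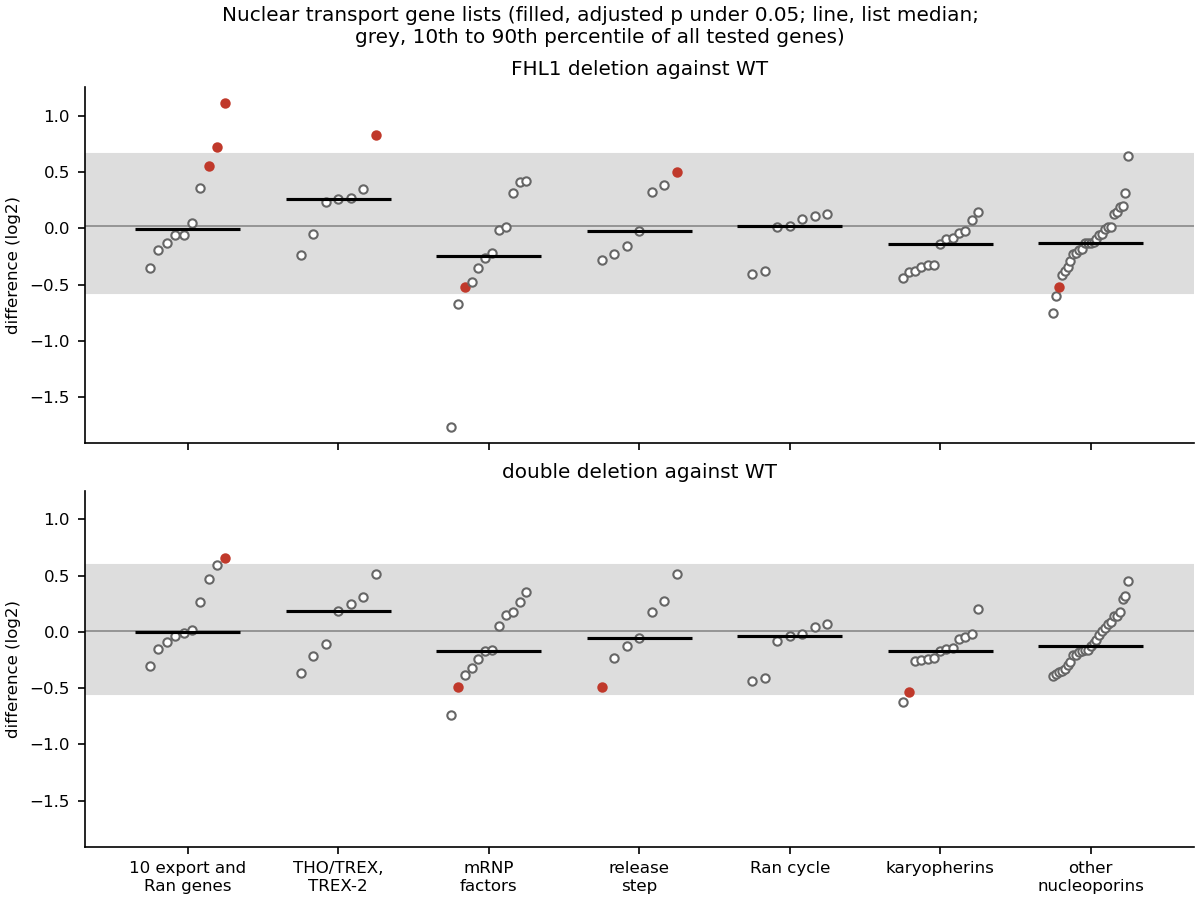
Log2 difference from WT of every tested gene of the 10 export and Ran genes and of 6 further lists, in the single mutant (top) and the double mutant (bottom); filled points have adjusted p under 0.05, black lines are list medians, and the grey band runs from the 10th to the 90th percentile of all tested genes. Filled points are 3 and 1 for the 10 genes. Medians are 0.27 and 0.19 for THO/TREX and TREX-2, and -0.24 and -0.17 for mRNP factors. They lie between -0.17 and -0.12 for karyopherins and nucleoporins, and between -0.06 and 0.02 for the release step and Ran cycle. All list medians lie inside the grey band.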

How the data were processed

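Expression was measured on 6 single-colour Affymetrix arrays, 2 per group. The authors deposited a log2 value for each of 9335 probe sets (scale read from the values' range); how these were summarized and normalized, and the genome build, is not given in the sources used here, and no coordinates are given. From probe sets assigned to 1 gene, each array's median was subtracted, values were raised to a floor at the 10th percentile, the brightest probe set per gene was kept, and the dimmest 25% of genes by mean were dropped. limma 3.58.1 (R 4.3.3) fitted 1 mean per group over all arrays (eBayes with trend, 3 residual degrees of freedom), with Benjamini-Hochberg adjustment over 4242 genes, threshold 0.05, and 95% confidence intervals. The number of arrays limits the precision.

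The planned scaling named a median over named genes, which can be read as over genes or over probe sets. Both were run; the probe set reading was kept after its counts were seen to match earlier results of these data, and the YRA1 and NPL3 calls differ between the readings.

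Members, lists and tests were chosen with earlier results of these data known. Named are the 10 genes, FHL1, IFH1, up to 3 called genes per list and the 2 nearest profiles of each called member; ARO10 was chosen after its values were seen. Of the listed transport genes, THO2 and SUS1 had no probe set of their own and 8 were too dim. Alternatives covered scaling, floor, filter, probe set rule, blocks by experiment number or array set, the samples fitted, the trend, mating type and each array left out. Centring over genes and probe sets as rows were added after seeing the data.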

Additional observations from a re-analysis of the deposited data

How the results depend on the processing

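Counts of genes past the threshold depended on the block and on single arrays. In the single mutant against WT, 903 genes became 505 with experiment number as a replicate block, 1767 with array set as a block and 219 to 864 with an array left out. In the double mutant, 774 became 461 without a filter, 315 with the replicate block, 1577 with array set as a block and 133 to 821 with an array left out. Between the mutants, 1 became 0 with the lowest 50% left out, 5 with array set as a block, 45 on the MATalpha arrays, 2 with every probe set as a row and 1 to 34 with an array left out. Deviations of same-numbered arrays from their group means gave r = -0.378 (single mutant and WT), 0.42 (double mutant and WT) and -0.635 (both mutants). With 2 arrays per group, matching by array set gives the same sizes by construction (0.378, 0.42 and 0.635). These values cannot say what pairs the arrays, as array set and mating type coincide on the mutant arrays. Of the 10 genes, 3 rose in the single mutant; 1 did without a filter or with the replicate block (MTR2 at adjusted p = 0.0463 with the block), 2 with plain probe sets (YRA1 at adjusted p = 0.0581), without the trend (YRA1 at 0.0506) or with centring over genes, and 0 to 3 with an array left out, while 1 (NPL3) fell with array set as a block and with centring over genes. In the double mutant 1 rose, 2 with deposited scaling, quantile normalization, array set as a block or MATalpha arrays alone, 0 with the replicate block and 0 to 1 with an array left out. Their median in the single mutant was 0.10 with deposited scaling, 0.054 with quantile normalization and -0.0055 to 0.12 with an array left out; in the double mutant it was 0.083, 0.065, 0.063 with plain probe sets and -0.043 to 0.081. Deposited scaling moved the median of all tested genes in the single mutant from 0.02 to 0.13, and the calls from 546 higher and 357 lower to 769 and 267; in the double mutant 415 and 359 became 521 and 269.

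Signs turned only for differences without a call in either setting. In the single mutant these were MEX67 (0.049 with deposited scaling, -0.25 to 0.13 with an array left out), GSP1 (0.049 deposited, 0.071 quantile), GBP2 (-0.00305 plain probe sets, -0.00099 centring over genes, -0.015 to 0.11) and SUB2 (-0.39 to 0.00997). In the double mutant these were MEX67 (0.068 deposited, 0.027 quantile, -0.20 to 0.17), GSP1 (0.043 and 0.10), GBP2 (-0.015 plain, -0.010 centring over genes, -0.046 to 0.081), NPL3 (0.14 plain), HRB1 (-0.034 to 0.56) and NAB2 (-0.21 to 0.030). Between the mutants these were GSP1 (-0.0063 deposited, -0.037 MATalpha arrays, -0.033 to 0.076), HRB1 (0.18 MATalpha arrays, -0.39 to 0.20), MEX67 (-0.047 to 0.14), MTR2 (-0.18 to 0.056) and YRA1 (-0.24 to 0.068). The cause of these shifts was not tested.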
